A study of Homo sapiens with 4 samples.

Results

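The ERBB receptors, their ligands and the receptor MET were followed in A549 cells, a human lung adenocarcinoma line of epithelial origin, after knockdown of the long noncoding RNA USP2-AS1. The members were chosen by name as EGFR, ERBB2, ERBB3, AREG, EREG, HBEGF, TGFA, NRG1 and MET. Of these 9 genes, 6 had a row in the table of 6828 genes, and EGFR, AREG and NRG1 were not analysed here. Both groups were infected with lentivirus, selected with puromycin and harvested 72 h after infection. The shctrl cells carried a control hairpin and the shUSP2-AS1 cells a hairpin against USP2-AS1, with 2 libraries of polyadenylated RNA each. The columns of the table carry 1 hairpin name for the knockdown, so that loss of USP2-AS1 and any other action of this hairpin cannot be told apart.

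ERBB receptors are tyrosine kinases of the cell surface that pair with each other when a ligand of the epidermal growth factor family binds. ERBB2 binds no known ligand and is the preferred partner of the others, whereas ERBB3 binds neuregulins such as NRG1, has little kinase activity of its own and recruits PI3K. The ligands are made as membrane-anchored precursors that ADAM proteases cut free. TGFA, AREG and EGF bind EGFR, and EREG, HBEGF and BTC bind both EGFR and ERBB4. MET is the receptor of hepatocyte growth factor and can signal together with ERBB receptors in carcinoma cells. In lung epithelium and lung adenocarcinoma these receptors drive the RAS-ERK and PI3K-AKT pathways.

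Every value below is a normalized read count, that is, the reads on a gene divided by a size factor of its library. All 6828 genes of the table have an adjusted p below 0.05 in the authors' comparison of these same libraries. Fold changes were fitted with limma over the 6812 genes with a mean of at least 10, and adjusted p-values are those of limma after Benjamini-Hochberg adjustment over these genes. Because the table was chosen on this comparison, such p-values are too small, and 3449 genes (50.6%) were higher and 3362 (49.4%) lower at adjusted p below 0.05. "Rose" and "fell" are used for genes past that threshold, and a gene was called when its fold change was also at least 2. In all, 16.1% of the tested genes were called higher and 13.5% called lower. In a table chosen on this comparison, groups that do not overlap are likely for any gene, and their share was not counted. An exact permutation test of a single gene over 2 against 2 libraries cannot go below a two-sided p of 0.333. The median log2 fold change of the tested genes was 0.19, not 0.

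USP2-AS1 itself read 23.2 and 24.2 in control cells and 2.10 and 6.16 in knockdown cells. Its level therefore followed the labels, with a log2 fold change of -2.39 (SE 0.56, adjusted p = 0.000597), although it rests on 24, 22, 2 and 7 reads. Recovered reads on the listed genes ranged from 10772788 to 14120472 per library. Of the 8 epithelial markers 5 were listed (EPCAM, CDH1 and CLDN7 were not analysed here), and their summed value was 168247 to 179356 in shctrl and 106691 to 113273 in shUSP2-AS1 cells. Keratin genes went both ways, with KRT18 (log2 fold change -1.05), KRT8 (-0.77) and KRT7 (-0.49) lower and KRT19 (0.75) higher. The tight junction gene CLDN4 (1.81) rose. Of 13 markers of fibroblasts, endothelium and blood only COL1A1 and LUM were listed, with a sum of 263 to 295 in shctrl and 555 to 634 in shUSP2-AS1 cells. LUM contributed little, at 1.52 ± 0.589 and 20.5 ± 6.64 (SD, n = 2). The part of these shifts in the results below was not tested.

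Knockdown of USP2-AS1 left the receptor genes moving in different directions. ERBB3 fell to 0.334 of its control level and was the only member called, MET fell modestly, and ERBB2 was slightly higher. Among the ligands EREG fell, whereas TGFA and HBEGF rose. Of the 6 members tested, 3 were higher and 3 lower at adjusted p below 0.05, next to 50.6% and 49.4% of all tested genes. Of these 6, 0 were called higher and 1 called lower, next to 16.1% and 13.5% of all tested genes. In bulk RNA a lower value from fewer cells that express a gene and from less RNA per cell cannot be told apart.

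**Figure D1:**
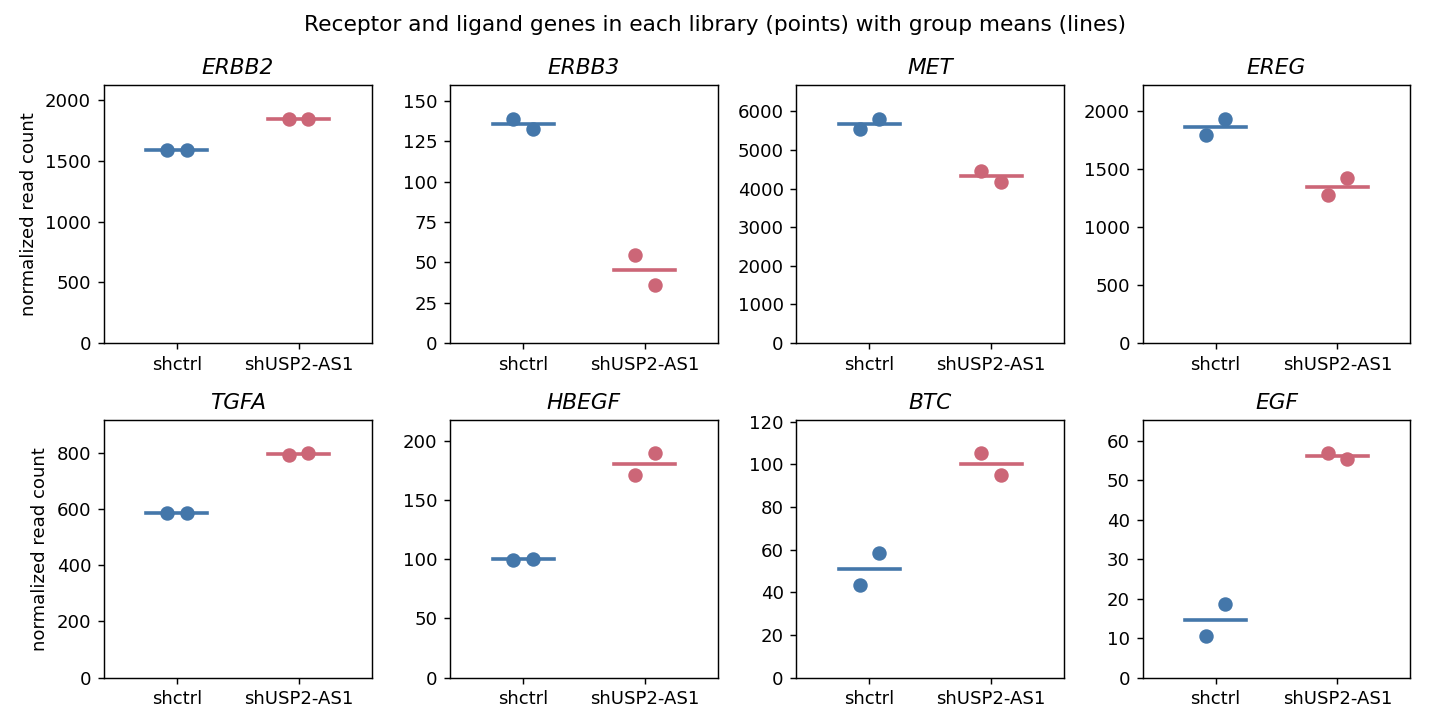
Normalized read count (vertical axes, each from 0) of the 6 member genes and of BTC and EGF in each library of the shctrl and shUSP2-AS1 groups, with points for libraries and lines for the means of 2. The groups do not overlap for any of the 8 genes, which is likely for any gene of a table chosen on this comparison. ERBB3 shows the deepest fall of the 8, from 139 and 133 to 54.7 and 36.1.

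Of the receptors, ERBB3 (ENSG00000065361, chr12:56076799-56103505, plus strand, GRCh38) changed most. Control cells gave a normalized read count of 139 and 133, and knockdown cells one of 54.7 and 36.1. The knockdown libraries lay well below both controls but differed more from each other than the controls did. The means were 136 ± 4.36 and 45.4 ± 13.1 (SD, n = 2), so that ERBB3 fell by 66.6%. The log2 fold change was -1.59 (SE 0.22, 95% interval -2.05 to -1.13, adjusted p = 2.47e-06). ERBB3 had few reads, 144 and 121 in control cells and 52 and 41 in knockdown cells. The exact 95% Poisson intervals of the knockdown counts were 38.8 to 68.2 and 29.4 to 55.6, and those of the control counts were 121 to 170 and 100.4 to 145. These intervals cover counting error only. Only 5.81% of tested genes had a lower log2 fold change. In the GENCODE release 44 annotation its exons share 31 bases with an unnamed protein-coding gene on the same strand.

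ERBB2 (ENSG00000141736, chr17:39687914-39730426, plus strand) differed little between replicates. Its normalized read count was 1590 and 1593 in shctrl cells and 1843 and 1849 in shUSP2-AS1 cells. The replicates of each group nearly coincided and the groups did not overlap, at 1592 ± 2.14 and 1846 ± 3.87 (SD, n = 2). Counting error alone is wider, with an exact 95% Poisson interval of 1567 to 1727 around the 1646 reads of shctrl replicate 1. These small SDs therefore do not measure the precision of the values. Its log2 fold change was 0.21 (SE 0.06, 95% interval 0.09 to 0.33, adjusted p = 0.0016). This is close to the median of the tested genes, and 50.4% of them had a lower value. The rise no longer passed adjusted p below 0.05 when reads were rescaled by RLE (log2 fold change 0.10, adjusted p = 0.107) or by the size factors that DESeq2 estimates (0.10, adjusted p = 0.219). Both scalings were estimated from listed genes only, all of which passed the authors' test. Whether they suit a table chosen in this way was not tested. Exons of ERBB2 share 571 bases (5.53%) with MIEN1 and 144 bases (1.40%) with PGAP3, both on the opposite strand, and the strand setting of the counting was not given in the sources used here.

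MET (ENSG00000105976, chr7:116672196-116798386, plus strand) had the highest values of the members. It was counted at 5542 and 5816 in control cells and at 4464 and 4179 after knockdown. Both knockdown libraries were below both controls, with means of 4322 ± 201 and 5679 ± 193 (SD, n = 2). MET thus fell by 23.9%, or by 0.39 on the log2 scale (SE 0.05, adjusted p = 1.64e-06). Its fall is among the better measured ones, with 4245 to 5736 reads per library.

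The receptor genes therefore stood in a different ratio to each other after knockdown. ERBB3 had 8.75 and 8.34 reads per 100 reads of ERBB2 in shctrl cells, and 2.97 and 1.95 in shUSP2-AS1 cells. ERBB2 had 28.7 and 27.4 reads per 100 reads of MET in control cells, and 41.3 and 44.2 after knockdown. Ratios within a library do not depend on its scaling, and neither ratio overlapped between the groups.

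**Figure D2:**
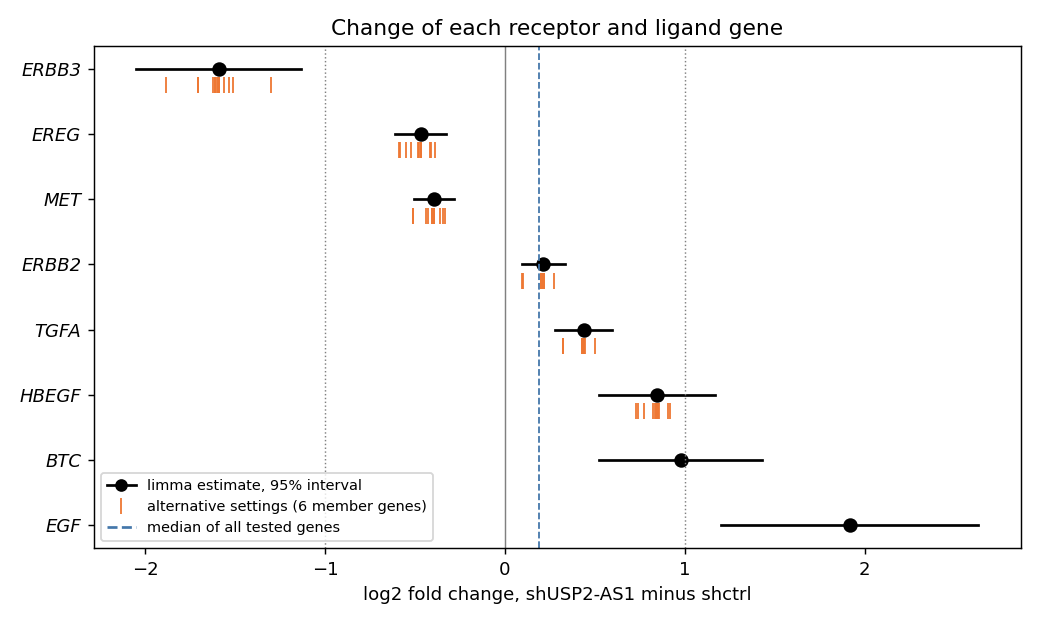
Log2 fold change (horizontal axis, shUSP2-AS1 minus shctrl) of each receptor and ligand gene, with the limma estimate and its 95% interval in black, the values of the 6 members under the other settings as orange ticks, the median of all tested genes as a dashed line and a 2-fold change as dotted lines. ERBB3 stays below -1 under every setting shown, from -1.89 to -1.30. ERBB2 sits at the median of the tested genes, although few of them have a smaller absolute change.

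Epiregulin, encoded by EREG (ENSG00000124882, chr4:74365145-74388749, plus strand), was the most abundant listed ligand gene and the only one that fell. Its normalized read count was 1792 and 1931 in shctrl cells, and 1272 and 1418 in shUSP2-AS1 cells. The groups did not overlap, although replicates differed by about as much in each group (1862 ± 97.9 and 1345 ± 103, SD, n = 2). EREG fell by 27.7%, with a log2 fold change of -0.47 (SE 0.07, adjusted p = 3.65e-06).

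Transforming growth factor alpha, encoded by TGFA (ENSG00000163235, chr2:70447284-70554193, minus strand), moved the other way. It was at 587 in both shctrl libraries, and at 793 and 799 in the shUSP2-AS1 libraries. Replicates were nearly equal within each group and the knockdown libraries were the higher ones. TGFA was 35.6% higher, with a log2 fold change of 0.44 (SE 0.08, adjusted p = 3.1e-05).

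Heparin-binding EGF-like growth factor, encoded by HBEGF (ENSG00000113070, chr5:140332843-140346603, minus strand), had the largest rise of the members and still fell short of a 2-fold change. Its values were 99.53 and 100.01 in shctrl cells, and 171 and 189 in shUSP2-AS1 cells. Both knockdown libraries lay far above the controls, which were nearly equal. The exact 95% Poisson interval of shctrl replicate 1, 84.1 to 125 reads, is wider than that closeness. HBEGF was 80.8% higher, with a log2 fold change of 0.85 (SE 0.15, 95% interval 0.53 to 1.17, adjusted p = 4.98e-05), on 103 and 91 reads against 163 and 215.

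Sequences of the 3 ligand promoters and of the MET promoter are shown because EREG and MET fell while TGFA and HBEGF rose. They were taken from RefSeq on GRCh38.p14, run from 250 bases before the gene start to 50 after it, and are written 5′ to 3′ on the strand of the gene. Capitals mark a TATA box (TATAAA), GC boxes of Sp1 (GGGCGG or its reverse complement CCGCCC) and an E-box of MYC (CACGTG). The windows are chr4:74364895-74365194 for EREG, chr5:140346554-140346853 for HBEGF, chr2:70553777-70554076 for TGFA and chr7:116671946-116672245 for MET. The TGFA window begins from a start that lies 367 bases inside the gene of the table, and the other 3 share the start of the table.
EREG: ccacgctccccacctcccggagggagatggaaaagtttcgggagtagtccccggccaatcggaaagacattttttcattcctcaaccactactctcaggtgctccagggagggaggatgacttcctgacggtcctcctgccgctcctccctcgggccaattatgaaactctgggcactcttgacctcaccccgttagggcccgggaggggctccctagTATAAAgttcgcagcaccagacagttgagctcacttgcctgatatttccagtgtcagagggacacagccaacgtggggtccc
HBEGF: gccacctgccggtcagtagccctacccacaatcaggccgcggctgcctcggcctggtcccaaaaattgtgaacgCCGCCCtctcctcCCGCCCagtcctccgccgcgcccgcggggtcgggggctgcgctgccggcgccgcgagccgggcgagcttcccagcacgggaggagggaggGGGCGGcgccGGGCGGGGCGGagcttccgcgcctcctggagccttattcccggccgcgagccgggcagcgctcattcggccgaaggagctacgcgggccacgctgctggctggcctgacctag
TGFA: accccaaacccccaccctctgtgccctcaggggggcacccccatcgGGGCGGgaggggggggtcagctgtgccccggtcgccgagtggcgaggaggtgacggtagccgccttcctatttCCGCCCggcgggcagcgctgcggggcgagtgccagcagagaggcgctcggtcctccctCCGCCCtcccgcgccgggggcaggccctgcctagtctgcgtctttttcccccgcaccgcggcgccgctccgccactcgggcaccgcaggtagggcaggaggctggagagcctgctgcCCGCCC
MET: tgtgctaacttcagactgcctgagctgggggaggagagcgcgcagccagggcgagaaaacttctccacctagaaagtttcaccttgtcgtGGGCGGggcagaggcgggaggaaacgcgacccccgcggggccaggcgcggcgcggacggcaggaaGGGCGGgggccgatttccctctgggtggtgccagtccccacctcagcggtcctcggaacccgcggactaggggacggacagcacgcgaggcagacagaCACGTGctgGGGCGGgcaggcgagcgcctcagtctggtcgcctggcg

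The EREG promoter differed from the other 3 in its letters. It holds TATAAA with its first base 32 bases before the start, and no GC box, at 57.7% G and C. Among 35116 RefSeq promoters of the same length 2.30% had TATAAA on the strand of the gene with its first base 40 to 20 bases before the start, and 11.5% had it anywhere on either strand. The share of G and C was 75.0% for HBEGF and 75.3% for TGFA, against a median of 58.7% over all promoters. The windows not shown had 60.7% for ERBB2, 63.0% for BTC and 46.7% for EGF, so genes that rose lay on both sides of that median.

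GC boxes were searched on both strands. HBEGF had 5, a pair of which overlap by 1 base, and TGFA had 4. At least 5 were found in 5.14% of all promoters and at least 4 in 9.06%. The MET promoter, at 69.3% G and C, had 3 GC boxes, and 15.8% of promoters hold at least that number. It also had the E-box CACGTG from base 4 after the start, which 7.26% of promoters hold. Neither the AP-1 site TGAGTCA nor the cAMP response element TGACGTCA was in any of the 4 windows, and the E2F site (TTTCCCGC, TTTCGCGC, TTTGCCGC or TTTGGCGC) was also missing, as it was from all but 3.31% of promoters. Of the windows not shown, that of EGF holds TGAGTCA from 17 bases before the start, as 4.95% of promoters hold it anywhere, and that of BTC holds 1 GC box. The ERBB2 window holds none of the motifs searched. It belongs to a start 180 bases inside the gene of the table, and no other start of ERBB2 was searched. These matches describe letters and not binding.

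Betacellulin and EGF, from the list of the other receptors and ligands of these families, rose with HBEGF and TGFA. Of the 10 genes in that list 2 were tested, 2 were higher and 1 was called higher. Over all tested genes 50.6% were higher and 16.1% called higher. BTC (ENSG00000174808 in chr4:74744759-74794523, minus strand) was at 43.5 and 58.2 in shctrl cells, and at 105 and 95.1 in shUSP2-AS1 cells. EGF (chr4:109912883-110013766, plus strand) was at 10.6 and 18.7, and at 56.8 and 55.5. Neither gene overlapped between the groups, but both had few reads, from 45 to 108 for BTC and from 11 to 63 for EGF. The log2 fold changes were 0.98 (SE 0.22, adjusted p = 0.000345) for BTC and 1.92 (SE 0.34, adjusted p = 4.32e-05) for EGF.

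The listed EGFR ligand genes therefore changed in their proportions more than in their sum. The summed value of EREG, TGFA, HBEGF, BTC and EGF was 2533 and 2695 in shctrl cells, and 2399 and 2557 in shUSP2-AS1 cells, so that the groups overlapped. EREG made up 70.8% and 71.7% of the reads on these 5 genes in shctrl cells, and 53.0% and 55.5% in shUSP2-AS1 cells. TGFA made up 23.2% and 21.8% in control cells, and 33.1% and 31.2% after knockdown. The share of EREG dropped and that of TGFA grew in both knockdown libraries, and HBEGF went from 3.93% and 3.71% to 7.15% and 7.40%. Per 100 reads of EREG there were 32.7 and 30.4 of TGFA in control cells, and 62.3 and 56.3 in knockdown cells. AREG, a further EGFR ligand gene, is not part of these sums. A ligand gene that did not pass the authors' test of this comparison could not enter them. A shift in shares among the 5 genes is thus partly built in by that choice.

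**Figure D3:**
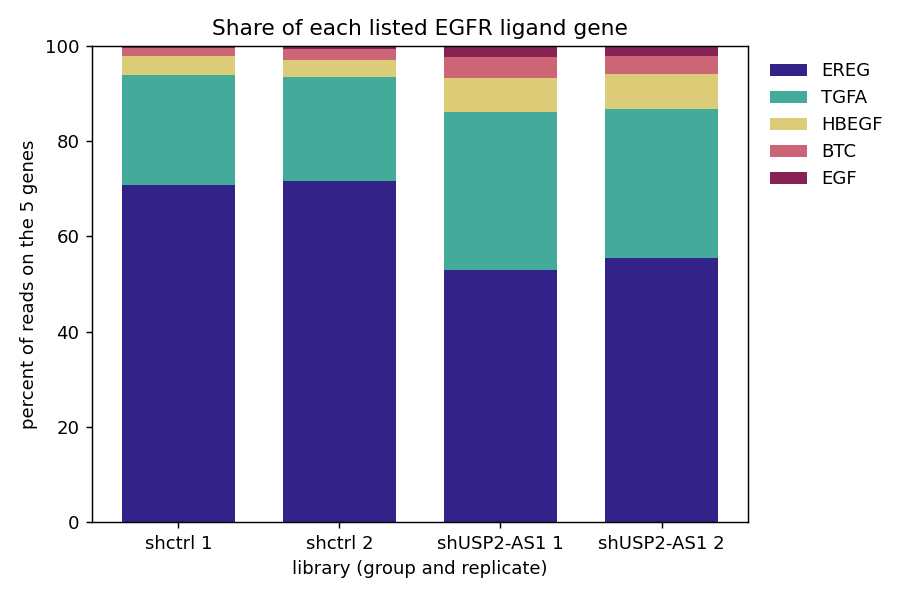
Share (vertical axis, percent from 0 to 100) of each listed EGFR ligand gene among the reads on all 5, by library (horizontal axis). The EREG share goes from 70.8% and 71.7% down to 53.0% and 55.5%, and each of the other 4 genes takes a larger share in both knockdown libraries.

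Per kilobase of the gene length in the table, MET had the highest mean level in shctrl cells, 785, followed by EREG at 326, ERBB2 at 154, TGFA at 119, HBEGF at 33.4, BTC at 19.2, ERBB3 at 15.4 and EGF at 1.92. BTC and ERBB3 stood closer to each other than the control libraries of BTC did, and their order is not settled by these libraries. After knockdown the mean levels per kilobase were 597 for MET, 235 for EREG, 179 for ERBB2, 162 for TGFA, 60.3 for HBEGF, 37.7 for BTC, 7.36 for EGF and 5.14 for ERBB3. By these lengths ERBB3 and EGF thus changed places at the bottom of the order. The gap between their nearest libraries, 7.27 for EGF and 6.19 for ERBB3, was smaller than that between the libraries of ERBB3. The length in the table covers more than 1 transcript, such as 10321 bases for ERBB2 against 4557 in its canonical GENCODE transcript. A level per kilobase of that transcript would be higher. The lengths differ less for EREG, 5713 against 4615 bases. The order above is therefore that of the gene lengths used here and can differ by others. By the canonical lengths EREG would lie below ERBB2 after knockdown, whereas EGF would still lie above ERBB3.

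**Figure D4:**
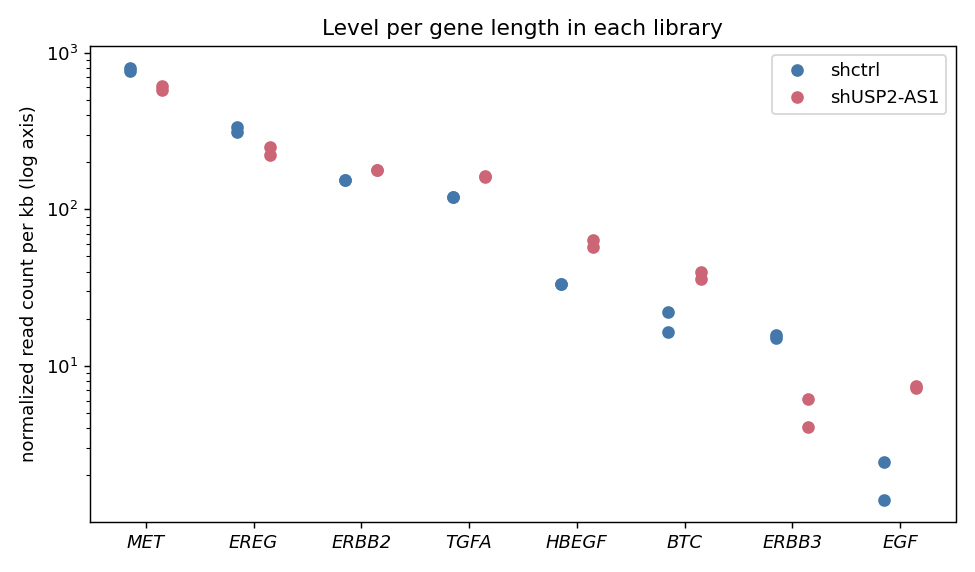
Normalized read count per kilobase of gene length (vertical log axis) of each receptor and ligand gene in the 2 shctrl and the 2 shUSP2-AS1 libraries, ordered by the control mean. MET leads in both groups at 785 and 597, and ERBB3 drops from 15.4 to 5.14, below EGF.

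By the mean absolute difference in log2(value + 1), each gene taken against its own shctrl mean, over the 4 libraries, the genes most like HBEGF were TRAFD1 (0.01), S100A11 (0.02) and AQP11 (0.02). Those most like ERBB3 were the sterol synthesis enzyme CYP51A1 (0.06), HROB (0.10) and the autophagy gene BECN1 (0.10). Their log2 fold changes were 0.82 to 0.88 and -1.60 to -1.49. Likeness over 4 libraries mostly means a similar fold change.

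The list of ligand shedding and HGF activation holds the proteases that release the ligands, their cofactors and inhibitors. Of its 15 named genes 9 were tested, and 9 were higher and 0 lower, next to 50.6% higher over all tested genes. The median log2 fold change was 0.78 next to 0.19 over all tested genes, and 2 genes were called higher, next to 16.1%. ADAM17, the main sheddase of TGFA, EREG and HBEGF, went from 1320 ± 35.6 to 2145 ± 118 (SD, n = 2), a log2 fold change of 0.70. ADAM10, which cuts EGF and BTC, had 0.74. The iRhom genes RHBDF1 (0.68) and RHBDF2 (0.78), whose products carry ADAM17 to the surface, also rose. Called higher were ADAM12 (1.03, SE 0.11, adjusted p = 8.84e-08), at 230 ± 23.1 and 470 ± 17.6, and the rhomboid protease RHBDL2 (1.14, SE 0.19, adjusted p = 2.31e-05), at 59.7 ± 9.84 and 132 ± 5.78. ADAM9 was the most abundant of them, at 6038 ± 25.9 and 11038 ± 257, with a log2 fold change of 0.87. SPINT2, an inhibitor of the proteases that activate HGF, had the smallest rise, 0.38.

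Receptor turnover genes went both ways. Of 19 named genes of receptor ubiquitination and endocytosis 12 were tested, of which 3 were higher and 9 lower, with a median of -0.43, and 0 were called higher and 2 called lower. Over all tested genes 49.4% were lower and 13.5% called lower. NEDD4, a ubiquitin ligase, went from 2099 ± 78.8 to 813 ± 70.7 (log2 fold change -1.37, SE 0.07, adjusted p = 6.69e-12). The endocytic adaptor EPN2 went from 881 ± 8.76 to 349 ± 40.3 (-1.34, SE 0.09, adjusted p = 3.43e-10). The early endosome GTPase RAB5A fell by 0.68 on the log2 scale. RNF41, the ubiquitin ligase known for degrading ERBB3, went from 658 ± 43.0 to 454 ± 7.46, a log2 fold change of -0.53, next to -1.59 for ERBB3. CBLB (0.66), a ligase of EGFR, moved the other way.

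Signalling genes below the receptors were mixed. Of 21 adaptor and RAS-ERK genes 4 were tested, 3 higher and 1 lower, with a median of 0.24 and 0 called. The exchange factor SOS2 (0.58) and the kinase ARAF (0.30) rose, and MAP2K2, which phosphorylates ERK, fell (-0.33). Of 19 genes of the PI3K, AKT, PLC and STAT branches 9 were tested, 5 higher and 4 lower, with a median of 0.40. Of them 2 were called higher, next to 16.1% of all tested genes. INPP4B, a phosphatase that opposes PI3K, went from 204 ± 12.7 to 434 ± 20.4 (log2 fold change 1.08). AKT1 (-0.51) and SRC (-0.52) fell, and STAT3 (0.55) rose.

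The tested output genes of ERK mostly fell, with 1 higher and 5 lower among 6 tested of 10 named and a median of -0.60. Over all tested genes 49.4% were lower and 16.1% called higher, with a median of 0.19. Lower were CCND1, encoding cyclin D1, from 10851 ± 10.1 to 7006 ± 114 (log2 fold change -0.63), the ETS factors ETV4 (-0.70) and ETV5 (-0.58), and the receptor EPHA2 (-0.65). EPHA4 was the exception and the only call of the list, from 54.9 ± 9.35 to 146 ± 19.6 (1.40, SE 0.20, adjusted p = 3.19e-06). Feedback inhibitors were split, with 3 higher and 3 lower among 6 tested of 20 named, a median of -0.05 and 0 called. LRIG1, which lowers ERBB receptor levels, rose (0.78), as did SPRED3 (0.77), whereas SOCS3 fell (-0.68).

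**Figure D5:**
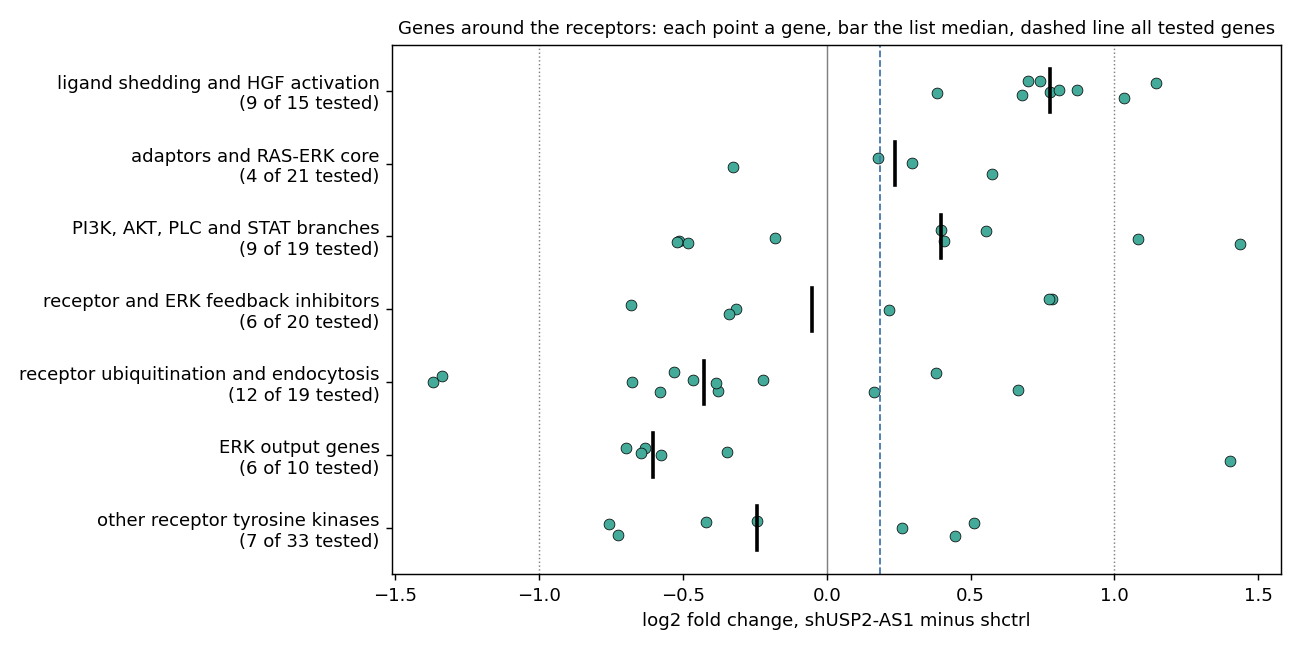
Log2 fold change (horizontal axis, shUSP2-AS1 minus shctrl) of each tested gene in 7 lists around the receptors, with a point for a gene, a black bar for the median of the list, a dashed line for the median of all tested genes and dotted lines at a 2-fold change. All 9 points of the shedding list lie above 0, with a median of 0.78, and 9 of 12 points of the ubiquitination and endocytosis list lie below 0.

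The other receptor tyrosine kinases also went both ways. Of 33 named 7 were tested, 3 higher and 4 lower, with a median of -0.24 and 0 called. FGFR3 went from 361 ± 21.9 to 214 ± 20.04 (log2 fold change -0.76), and NTRK3 from 667 ± 1.02 to 403 ± 3.76 (-0.73). TYRO3 rose (0.51), as did IGF1R (0.45) and AXL (0.26). Among these 7 and the 3 tested receptors of the members ERBB3 was the only one called. Over all tested genes 16.1% were called higher and 13.5% called lower. The receptor tyrosine kinase EPHA4, counted above with the output genes of ERK, was called higher (1.40), and EPHA2 fell (-0.65).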

How the data were processed

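Polyadenylated RNA of A549 cells was sequenced 72 h after infection, with 2 shctrl and 2 shUSP2-AS1 libraries, which the study's methods treat as biological replicates. The submitters' processing notes name hg38, HISAT2 2.0.5, featureCounts 1.5.0-p3 and DESeq2 1.20.0. The annotation is not given in the sources used here. For 6828 genes the authors deposited a normalized signal, the read count over a size factor. Their own fold changes and p-values, also deposited, were not used, except to see that every adjusted p-value is below 0.05. The heading of the table and the column names gave the groups, and the number in the name the replicate.

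Whole reads (within 0.01) were recovered for 100% of values. Replicates differed by more than counting noise, with a chi-square per degree of freedom of 3.75 (shctrl) and 3.84 (shUSP2-AS1). The planned test for normalized values was limma 3.58.1 (R 4.3.3), run on log2(value + 1) with a trended prior for 6812 genes whose mean reached 10. A called gene had a Benjamini-Hochberg adjusted p below 0.05 and a change of at least 2-fold. Alternatives were edgeR 4.0.16 and DESeq2 1.42.0 on recovered reads, other scalings, filters and pseudocounts, a replicate block, a test against a 2-fold change and each library left out.

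Named are the 9 members, USP2-AS1, the 3 genes of each list with the largest absolute change, and the 3 genes most like the members with the largest rise and fall. Further list genes (ADAM10, ADAM17, RHBDF1, RHBDF2, SPINT2, RNF41, CBLB, AKT1, SRC, CCND1, ETV5, IGF1R and AXL) were named for their role after their values were seen. KRT7 and KRT19 are named so that every listed epithelial marker is given. The values of 1 gene that the first rule would name are not reported here. Members and lists were chosen with earlier results of these data known. Motifs were searched in RefSeq promoters, where ERBB3 had no entry, and exon overlaps in GENCODE release 44.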

Additional observations from a re-analysis of the deposited data

How the results depend on the processing

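Each of the 6 member fold changes kept its direction under all 17 alternatives, with ranges of -1.89 to -1.30 for ERBB3, -0.59 to -0.39 for EREG, -0.51 to -0.33 for MET, 0.10 to 0.27 for ERBB2, 0.32 to 0.50 for TGFA and 0.73 to 0.92 for HBEGF. ERBB2 no longer passed adjusted p below 0.05 under RLE scaling (0.10, adjusted p = 0.107), which shifts the median of all genes by -0.12, and with the size factors of DESeq2 (0.10, adjusted p = 0.219). All alternative scalings were estimated from listed genes only, which had all passed the authors' test, so the shift may come from that choice. This was not tested. Tested by limma against a 2-fold change, ERBB3 still passed (adjusted p = 0.0471), and ERBB2 (0.21), EREG (-0.47), HBEGF (0.85), TGFA (0.44) and MET (-0.39) did not, each with an adjusted p of 1, since their estimates are under 2-fold. That test called 541 genes higher and 523 lower. Without the fold threshold 3449 genes were higher and 3362 lower, 3 members higher and 3 lower. With each library left out in turn, where a lone library is assumed to vary like the other group, 1083 to 1101 genes were called higher and 882 to 955 lower, with 0 members higher and 1 lower each time. The replicate numbers did not pair the libraries (the correlation of replicate differences between groups, across 6812 genes, was -0.04), and the replicate block gave 1098 and 922 calls, 0 members higher and 1 lower, and changed no member's call. RLE gave 929 higher and 1143 lower. Low counts limit ERBB3, HBEGF, BTC and EGF most, and the table holds only genes that passed the authors' test.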

Other observations

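Genes near the members were looked at after their values were seen, so the counts are descriptions. Over all tested genes 50.6% were higher and 49.4% lower at adjusted p below 0.05, with a median log2 fold change of 0.19. Within 500 kb of ERBB2, 8 other genes were tested, and 0 were higher and 8 lower, with a median log2 fold change of -0.46, while ERBB2 itself was at 0.21. The ligand genes EREG and BTC lie 356 kb apart on chromosome 4 and moved in opposite directions (-0.47 and 0.98). Of 5 tested neighbours of EREG, the chemokine genes CXCL1, CXCL2, CXCL3 and CXCL5 were lower and BTC was higher, with log2 fold changes from -3.00 to 0.98. Around ERBB3 21 genes were tested, with 6 higher and 15 lower and a median of -0.50. Around MET 3 of 4 tested genes were higher, with a median of 0.55, while MET fell. Around HBEGF, which rose, 6 were higher and 3 lower (median 1.10), and around TGFA, which also rose, 2 were higher and 3 lower (median -0.40). The neighbours of HBEGF include PCDHA3, PCDHA4, PCDHA5 and PCDHA8 of the protocadherin alpha cluster, each counted as a separate gene.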
